A study of Mus musculus with 12 samples.

Results

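The type I interferon response genes are a set of 42 genes whose transcription rises when interferon reaches a cell. They were chosen by name, as known interferon-stimulated genes, and all 42 are among the 23234 features of the expression table. Type I interferons bind a receptor of the subunits Ifnar1 and Ifnar2, whose kinases Jak1 and Tyk2 phosphorylate Stat2 and other transcription factors. Stat2 acts in a complex with Irf9 that binds the interferon-stimulated response element (ISRE) in promoters. The products sense foreign nucleic acid, block viral replication, or feed back on the pathway, and in the thymus interferon made in the medulla is known to act on thymocytes late in their maturation.

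RNA-seq was done on sorted CD24hiTCRβlo CD4+CD8+ double-positive (DP) thymocytes before selection, all from C57BL/6 mice. There were 5 wild-type libraries from newborn mice, 3 libraries from newborn Bcl11bm/m mice and 4 libraries from Bcl11bfl/fl:Cd4-Cre mice (cKO), whose age the labels do not give. Bcl11bm/m mice are homozygous for an allele with a frameshift, whose product lacks the last zinc finger of Bcl11b and which acts from the germ line on in all cells; these mice die as neonates. In cKO mice, Cre under Cd4 control deletes the gene in thymocytes from about the DP stage, so the timing of the loss differs between the mutants together with the allele, and a difference in age cannot be told apart from them. The titles and the design text give these genotypes, and the descriptions of the wild-type and cKO libraries name other ones. The labels do not say that each library came from its own animal, so p-values measure only the spread between these libraries.

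Across the series, Bcl11b was at 132 to 292 FPKM in wild-type, 430 to 482 FPKM in Bcl11bm/m and 115 to 140 FPKM in cKO libraries, values that cover the whole gene and not the deleted part alone. FPKM are fragments scaled by the length of the transcript and the number of mapped fragments. Read numbers are not given. Steps between low FPKM values put the depth near 3970000 to 6910000 fragments for wild-type, 2720000 to 4220000 in Bcl11bm/m and 11060000 to 45950000 in cKO libraries, so that depth and the cKO genotype cannot be told apart. At 1 FPKM, a transcript of 2000 bases rests on about 4.9 fragments in the shallowest library, Bcl11bm/m replicate 1. The DP markers Cd4, Cd8a, Cd8b1, Rag1 and Rag2 were present in all 12 libraries.

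The promoters show what many members share beyond their names. For 34 of the 42 members RefSeq promoters were at hand, each with 250 bases before and 50 after the start of the gene. The core letters of the ISRE, GAAA, any 2 bases and again GAAA, searched on both strands, occurred in 16 of these 34 (47.1%), and in 1079 of 27025 genes with a promoter (3.99%). Matches to these letters can overlap one another. The letters TTCNNNGAA, those of the interferon gamma-activated site (GAS), occurred in 10 of the 34 (29.4%) and in 9.55% of all genes, and their reverse complement is the same pattern. The following stretches are from members that differed between groups in at least 1 comparison, plus Isg15, which did not. They are RefSeq sequences (GRCm38.p6 table), read 5′ to 3′ along the strand of the gene, each found at 1 place in NCBIM37 (mm9). Capitals mark the ISRE letters, or for Irf1 the GAS letters, and TTTC, any 2 bases and TTTC is the ISRE read from the other strand. Where a promoter held several matches, the one farthest upstream is shown.
Ddx58 (chr4:40186837-40186866, minus strand): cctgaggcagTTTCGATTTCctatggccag
Ifih1 (chr2:62484263-62484290, minus strand): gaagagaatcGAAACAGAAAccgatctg
Eif2ak2 (chr17:79281875-79281904, minus strand): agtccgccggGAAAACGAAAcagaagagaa
Ifit3 (chr19:34657853-34657882, plus strand): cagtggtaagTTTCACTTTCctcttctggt
Rsad2 (chr12:27141418-27141447, minus strand): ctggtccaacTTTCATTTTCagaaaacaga
Isg15 (chr4:155574986-155575015, minus strand): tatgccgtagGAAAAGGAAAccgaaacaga
Gbp2 (chr3:142283558-142283587, plus strand): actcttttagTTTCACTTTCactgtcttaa
Gbp3 (chr3:142222953-142222982, plus strand): caggacacagTTTCAGTTTCtatttcccag
Irgm1 (chr11:48684933-48684962, minus strand): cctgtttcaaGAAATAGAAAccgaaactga
Irf1 (chr11:53583416-53583444, plus strand): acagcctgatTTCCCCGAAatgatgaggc
In the set of 16 members that were higher in Bcl11bm/m thymocytes, 15 had a promoter in the table and 7 of these held the ISRE letters (46.7%). Among the other members, 9 of 19 held them (47.4%). The GAS letters were in 2 of the 15 (13.3%) and in 8 of the 19 (42.1%). A match describes these letters only and does not show a site in use. Of Dhx58, Zbp1, Usp18, Oas2, Parp9, Parp14, Ifi27l2a and Rtp4 no promoter was used.

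In position, 15 of the 42 members fall into 6 clusters in which neighbours lie within 200 kb of each other (GENCODE vM1 on NCBIM37). Rsad2 and Cmpk2 adjoin on chromosome 12 (chr12:27127618-27164700), and Ifit2, Ifit3 and Ifit1 on chromosome 19 (chr19:34625184-34724499). Gbp3 and Gbp2 lie on chromosome 3 (chr3:142223016-142300972), and Parp14, Dtx3l and Parp9 on chromosome 16 (chr16:35832960-35972691). The 2'-5' oligoadenylate synthetase genes form a cluster of Oas2, Oas3 and Oas1a and another of Oasl2 and Oasl1, both on chromosome 5.

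Single libraries stood apart in the level of the whole set. Each gene's deviation from its mean over the 12 libraries was taken on the log2(FPKM + 1) scale, and the median over the 42 members gives the level of a library. These levels were -0.63, 0.16, -0.06, -0.14 and -0.42 in wild-type replicates 1 to 5, 0.97, 0.44 and 0.35 in Bcl11bm/m replicates 1 to 3, and 0.01, -0.45, 0.29 and -0.32 in cKO replicates 1 to 4. All 3 Bcl11bm/m libraries lay above all 9 others, and the cKO libraries overlapped with wild-type. Over all 10780 features tested, the same median ran from -0.20 in wild-type replicate 1 to 0.20 in wild-type replicate 4. Bcl11bm/m replicate 1 held the highest value of the 12 libraries for 36 of the 42 members, and wild-type replicate 1 the lowest for 19. Within the other groups, wild-type replicate 2 was the highest of its 5 libraries for 28 members and cKO replicate 3 the highest of its 4 libraries for 28. The same few libraries were thus the highest or the lowest of their group for most members.

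**Figure D1:**
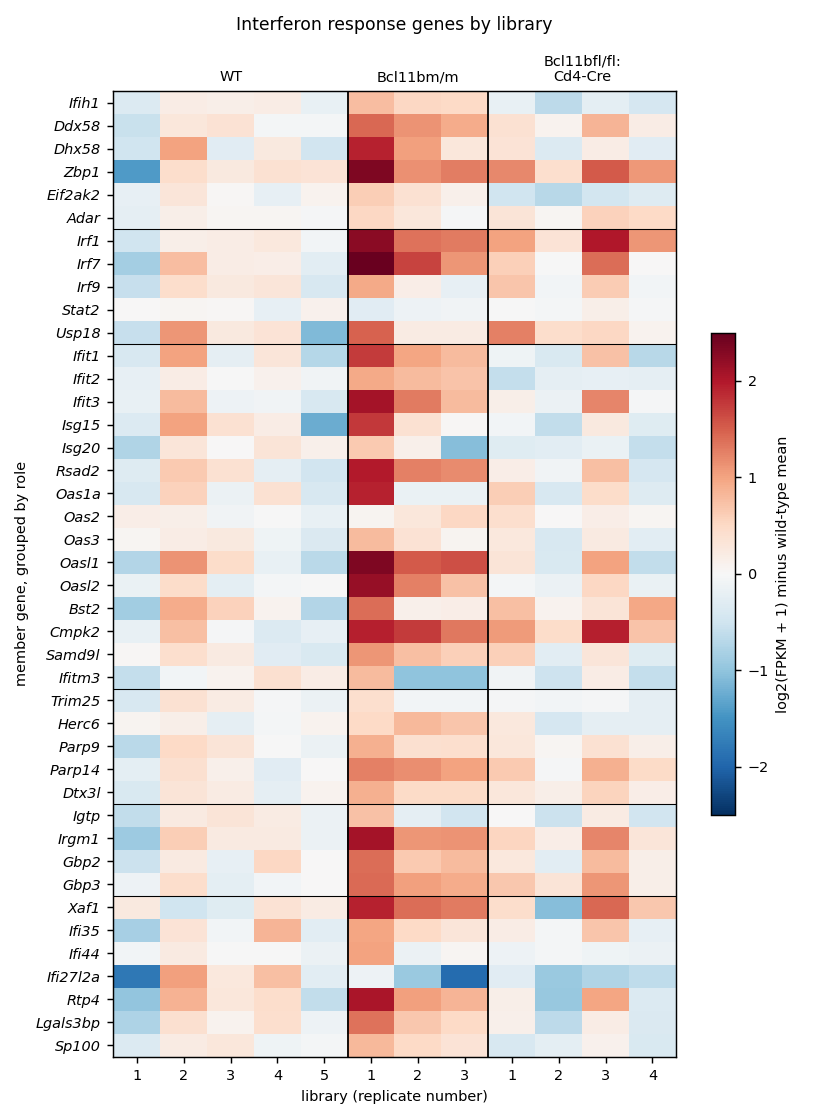
Heat map of the 42 member genes (rows, grouped by role) in the 12 libraries (columns), coloured by log2(FPKM + 1) minus the wild-type mean of the gene. Bcl11bm/m replicate 1 is the darkest red column and the highest library for 36 members, and the cKO columns differ among themselves.

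Markers of other cells and stages also differed between libraries, though not always in the order of these levels. The summed FPKM of 18 myeloid and dendritic cell markers was 11.6 to 27.2 in wild-type, 167, 65.8 and 47.0 in Bcl11bm/m replicates 1 to 3 and 17.1, 3.95, 51.3 and 11.7 in cKO replicates 1 to 4. Of these sums, Fcer1g alone was 40.2, 10.1 and 8.83 FPKM in Bcl11bm/m and 10.4, 1.20, 42.2 and 8.43 FPKM in cKO libraries. Some markers here and below, such as Flt3, Mpeg1 and Klrb1c, averaged below 1 FPKM in wild-type and passed the filter through the mutants. Others, such as C1qa, C1qb and C1qc, were below 1 FPKM in every cKO library and passed through the other groups. The counts are therefore given as a description. Of the 11 myeloid and dendritic markers tested against wild-type, 5 were higher in Bcl11bm/m thymocytes and 5 were lower in cKO thymocytes. Over all features, 9.92% were higher and 7.39% lower in Bcl11bm/m thymocytes, and 4.65% higher and 9.86% lower in cKO thymocytes. The complement genes C1qa, C1qb and C1qc of macrophages were between 2.78 and 19.3 FPKM in Bcl11bm/m and 0.838 and 4.72 FPKM in wild-type libraries. Flt3, the receptor of dendritic cell growth, was at 2.86 to 5.81 FPKM in Bcl11bm/m and 0 to 0.218 FPKM in wild-type libraries, and the dendritic cell integrin gene Itgax at 0.124 to 1.19 and 0 to 0.0328 FPKM. Itgam, an integrin gene of myeloid cells, went the other way, at 0.571 to 0.791 FPKM in Bcl11bm/m and 0.760 to 4.63 FPKM in wild-type libraries, and did not pass. Zbtb46, a regulator of dendritic cells, was listed at 0 in all libraries of both groups. For 14 markers of post-selection and mature thymocytes, the sum was 340 to 538 FPKM in wild-type, 600 to 792 in Bcl11bm/m and 375 to 689 in cKO libraries. Wild-type replicate 2, with the highest member level of its group, had a sum of 431 FPKM, below the 514 to 538 FPKM of replicates 3 to 5. In Bcl11bm/m thymocytes 7 of the 14 mature thymocyte markers were higher and 3 lower than in wild-type, and in cKO thymocytes 4 were higher and 2 lower. The 12 markers of pre-selection DP thymocytes summed to 5693 to 7662 FPKM in wild-type, 4259 to 4785 in Bcl11bm/m and 4092 to 6119 in cKO libraries, and 7 of them were lower in Bcl11bm/m than in wild-type thymocytes. The 11 NK cell markers summed to 19.1 to 73.4 FPKM in wild-type, 218 to 429 in Bcl11bm/m and 66.5 to 191 in cKO libraries, most of it Gzma, with the defining gene Ncr1 at 0 to 0.192 FPKM. In the test 3 of 4 were higher in Bcl11bm/m than in wild-type thymocytes (Gzma, Prf1 and Klrb1c) and 0 lower. The 9 markers of plasmacytoid dendritic cells, the strongest makers of type I interferon, summed to 513 to 1755 FPKM in wild-type, 2077 to 2536 in Bcl11bm/m and 697 to 1032 in cKO libraries, so that Bcl11bm/m libraries lay above the others. Most of this was Ly6d, which was at 252 to 1430 FPKM in wild-type and 1968 to 2450 FPKM in Bcl11bm/m libraries. Of the 7 tested, 2 (Ccr9 and Pacsin1) were lower in Bcl11bm/m thymocytes and 0 higher, and the defining gene Siglech was at 0.134 to 0.429 FPKM in wild-type and 0.230 to 0.686 FPKM in Bcl11bm/m libraries. Of the other lists tested against wild-type, 3 of 6 gamma-delta T cell markers, 0 of 5 B cell, 0 of 3 erythroid and 2 of 4 thymic stroma markers were higher in Bcl11bm/m thymocytes, and 1 stroma marker, Epcam, was lower. In cKO thymocytes 2 of 6 gamma-delta T cell, 2 of 5 B cell, 2 of 4 thymic stroma (again Pdgfrb and Pecam1) and 1 of 4 NK cell markers were higher. There 1 stroma, 1 NK cell, 2 plasmacytoid dendritic cell and 2 pre-selection DP markers were lower. The part of such cells in the results below was not tested, and in bulk samples fewer cells of a type and less RNA per cell cannot be told apart.

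**Figure D2:**
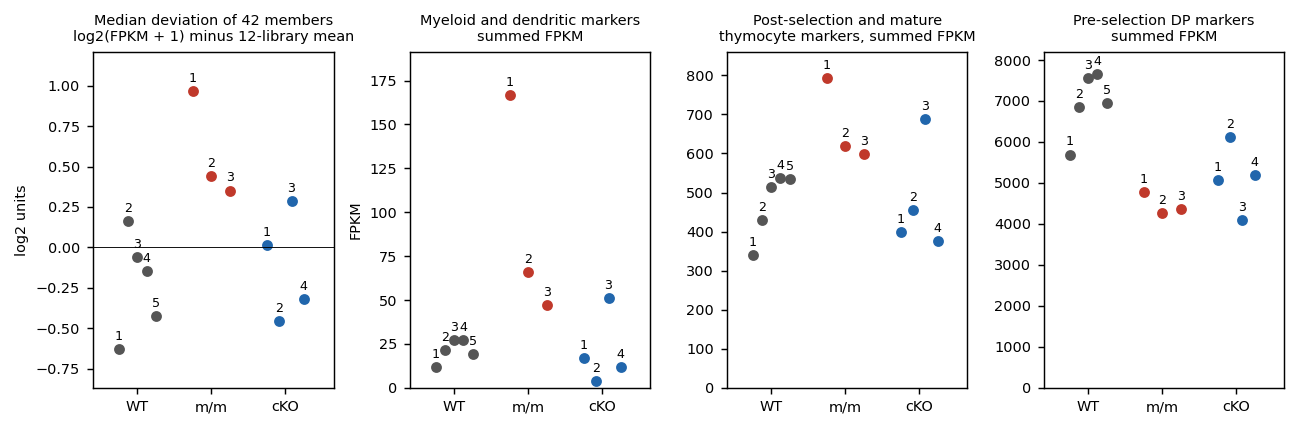
Library levels of the 42 members (left, median deviation on the log2 scale) and summed FPKM of 3 marker lists, with 1 point per library and its replicate number, for wild-type (WT), Bcl11bm/m (m/m) and cKO. Bcl11bm/m replicate 1 is the highest library for the members, the myeloid and dendritic markers (167 FPKM) and the mature thymocyte markers (792 FPKM).

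In Bcl11bm/m thymocytes, 16 of the 42 interferon response genes were higher than in wild-type and 0 were lower. On the log2(FPKM + 1) scale, the largest differences among the members were in Oasl1, an antiviral relative of the oligoadenylate synthetases, Irf7, the regulator that amplifies interferon production, Cmpk2 and Irf1. With a pseudocount of 0.1 in place of 1, Ifit3 (2.30) and Rsad2 (2.19) exceeded Irf7 (1.92) and Irf1 (1.68). Of the others, 21 did not pass the test and 5 (Oas1a, Oas2, Oasl2, Ifitm3 and Ifi44) were too low to be tested. In the limma test (adjusted p below 0.05 over all features), 9.92% of the 10780 features were higher and 7.39% lower. At an unadjusted p below 0.05, 23 members were higher and 0 lower. The 16 are 43.2% of the 37 members tested. The filter took the mean of all 12 libraries. Ifit3 averaged below 1 FPKM in wild-type and passed it through the mutants, so its call is no support, and without it 15 members were higher. Mean values on the log2 scale were higher in 38 of the 42 members, with a median difference of 0.70 against -0.02 over all features. The 3 Bcl11bm/m libraries lay above the 5 wild-type libraries without overlap in 20 of the 37 members tested (19 without Ifit3), which held for 14.6% of all features. Without Bcl11bm/m replicate 1, 9 members were higher, without replicate 2 8, without replicate 3 10, and without wild-type replicate 5 10. Over all features, the shares called in either direction were 11.4%, 9.47%, 12.6% and 13.3% in that order, against 17.3% with all libraries. With both replicates numbered 1 left out, an alternative chosen after the data were seen, 11 were higher, of which 10 are among the 16 and the other was Zbp1, and 1 was lower, Ifi27l2a. With library quality weights 15 were higher, and Ifi27l2a was again lower. With these weights 33.4% of all features were called in either direction, against 17.3% without them. Without both replicates numbered 1, this share was 19.5%. Below, values are in order of replicate number, and differences are Bcl11bm/m minus wild-type in mean log2(FPKM + 1) with their SE, a scale that understates the change of genes with low expression.

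**Figure D3:**
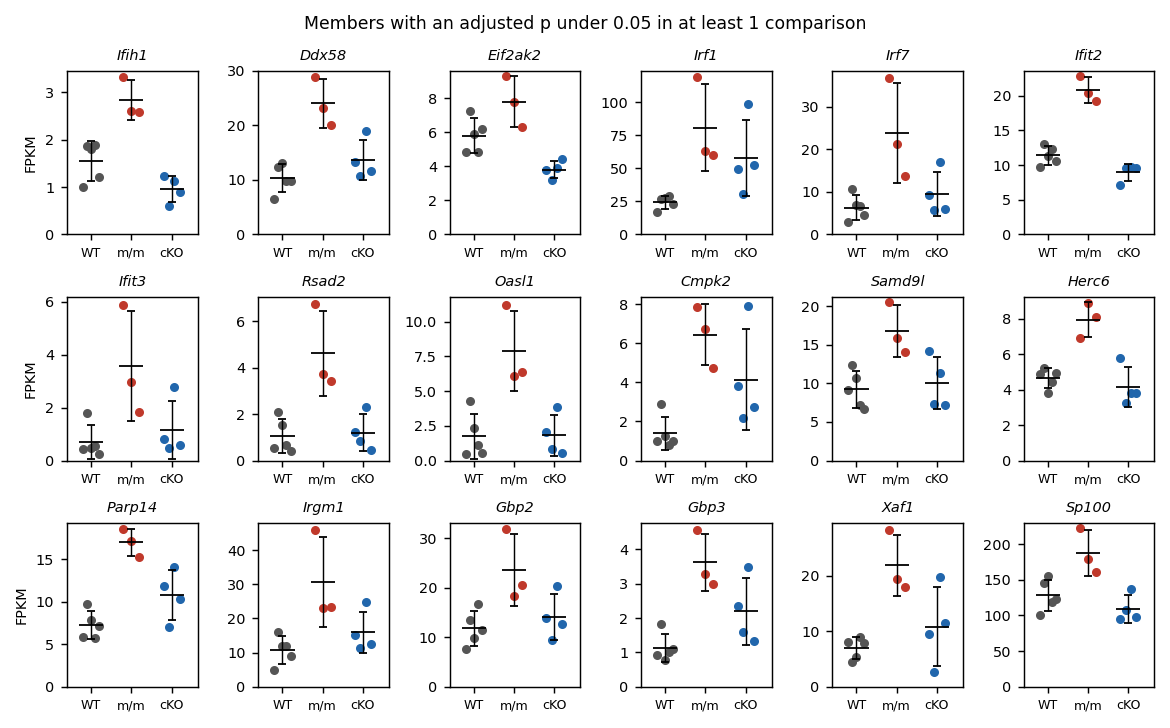
FPKM of the 18 members that passed the test in at least 1 comparison, with 1 point per library, the mean (line) and SD (bars), for wild-type (WT, n = 5), Bcl11bm/m (m/m, n = 3) and cKO (n = 4). For Irf1, Irf7, Ifit2 and Xaf1 every Bcl11bm/m point lies above every wild-type point, and cKO replicate 3 reaches 98.2 FPKM of Irf1.

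Among the 6 sensors of foreign nucleic acid, 2 were higher in Bcl11bm/m thymocytes. Ddx58, which encodes the RNA helicase RIG-I, was at 6.53, 12.4, 13.2, 9.73 and 9.75 FPKM in wild-type, 28.9, 23.1 and 20.1 FPKM in Bcl11bm/m and 13.3, 10.8, 18.9 and 11.6 FPKM in cKO libraries. All Bcl11bm/m values exceeded the highest wild-type value, with a difference of 1.17 ± 0.22 (adjusted p = 0.00904). Ifih1, which encodes the related sensor MDA5, was at 1.0, 1.88, 1.80, 1.89 and 1.21 FPKM in wild-type, 3.32, 2.60 and 2.58 FPKM in Bcl11bm/m and 1.22, 0.599, 1.13 and 0.886 FPKM in cKO libraries. Its values were low but again did not overlap between Bcl11bm/m and wild-type, and the difference was 0.60 ± 0.16 (adjusted p = 0.0377). Without Bcl11bm/m replicate 1 the call of Ifih1 was lost (0.51, adjusted p = 0.126), and it was also lost without Bcl11bm/m replicate 2 or 3 or wild-type replicate 3 or 5. Zbp1, a sensor of Z-form nucleic acid that can start necroptosis, was at 6.44, 25.9, 22.2, 24.8 and 24.0 FPKM in wild-type, 98.3, 42.6 and 46.8 FPKM in Bcl11bm/m and 44.7, 25.4, 55.8 and 40.6 FPKM in cKO libraries. Wild-type replicate 1 was far below the other wild-type libraries, and the difference of 1.58 ± 0.47 (adjusted p = 0.0521) did not pass. Eif2ak2, which encodes the kinase PKR that stops translation on double-stranded RNA, was at 4.85, 7.25, 5.90, 4.81 and 6.16 FPKM in wild-type, 9.30, 7.74 and 6.33 FPKM in Bcl11bm/m and 3.77, 3.17, 3.88 and 4.40 FPKM in cKO libraries. Here Bcl11bm/m and wild-type overlapped (0.37 ± 0.17, adjusted p = 0.191), while all 4 cKO values lay below the lowest wild-type value. Dhx58, a regulator of both RNA helicases, ranged from 0.650 to 3.66 FPKM in wild-type and from 1.82 to 7.77 FPKM in Bcl11bm/m libraries (1.07 ± 0.44, adjusted p = 0.145). Adar, which edits double-stranded RNA, was at 11.9 to 15.8 FPKM in wild-type and 13.7 to 20.6 FPKM in Bcl11bm/m libraries (0.25 ± 0.15, adjusted p = 0.312).

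Of the 5 members of interferon signalling and transcription, Irf1 and Irf7 were higher. Irf1 (chr11:53583516-53591876), a transcription factor that interferons induce early, was at 16.5, 26.4, 27.2, 28.7 and 22.8 FPKM in wild-type, 119, 63.1 and 59.9 FPKM in Bcl11bm/m and 49.2, 30.5, 98.2 and 52.4 FPKM in cKO libraries. The lowest Bcl11bm/m library was at more than 2 times the highest wild-type library, and the difference was 1.64 ± 0.26 (adjusted p = 0.0039). Irf7 (chr7:148448605-148452380) was at 2.81, 10.7, 6.80, 6.63 and 4.66 FPKM in wild-type, 36.8, 21.2 and 13.7 FPKM in Bcl11bm/m and 9.29, 5.79, 16.9 and 5.87 FPKM in cKO libraries. Bcl11bm/m values were spread from 13.7 to 36.8 FPKM but all exceeded wild-type (1.76 ± 0.40, adjusted p = 0.0192). The call of Irf7 was lost without Bcl11bm/m replicate 1 (1.40, adjusted p = 0.0723) or replicate 2. The partners in the signalling complex did not pass the test. Stat2 was at 16.0 to 20.3 FPKM in wild-type and 15.3 to 17.6 FPKM in Bcl11bm/m libraries (-0.16 ± 0.11, adjusted p = 0.394). Irf9, its DNA-binding partner, was at 7.84 to 16.7 FPKM in wild-type and 10.4 to 24.3 FPKM in Bcl11bm/m libraries (0.30 ± 0.32, adjusted p = 0.591). For Usp18, the protease that removes Isg15 and restrains the receptor, both groups overlapped widely, at 1.68 to 11.2 FPKM in wild-type and 5.56 to 14.9 FPKM in Bcl11bm/m libraries (0.62 ± 0.52, adjusted p = 0.472). The exons of Irf1 and Irf7 overlap with genes on the opposite strand, and whether the counting used the strand is uncertain.

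Antiviral effectors were the largest group, and 6 of its 15 members were higher in Bcl11bm/m thymocytes. Ifit2, which binds foreign RNA and limits its translation, was at 9.74, 13.1, 11.2, 12.3 and 10.6 FPKM in wild-type, 22.8, 20.4 and 19.2 FPKM in Bcl11bm/m and 7.15, 9.54, 9.70 and 9.53 FPKM in cKO libraries. The spread within groups was small and the groups did not overlap (0.82 ± 0.13, adjusted p = 0.00357). Ifit3, its neighbour and partner, was at 0.435, 1.82, 0.489, 0.544 and 0.242 FPKM in wild-type, 5.90, 2.99 and 1.84 FPKM in Bcl11bm/m and 0.808, 0.473, 2.78 and 0.588 FPKM in cKO libraries. With wild-type near or below the filter, the fitted difference was 1.39 ± 0.34 (adjusted p = 0.0242), which is given as a description. Rsad2, which encodes the antiviral enzyme viperin, was at 0.561, 2.07, 1.54, 0.681 and 0.413 FPKM in wild-type, 6.73, 3.72 and 3.43 FPKM in Bcl11bm/m and 1.21, 0.838, 2.30 and 0.472 FPKM in cKO libraries. Cmpk2, a nucleotide kinase next to Rsad2, was at 1.01, 2.87, 1.26, 0.817 and 0.991 FPKM in wild-type, 7.83, 6.73 and 4.74 FPKM in Bcl11bm/m and 3.80, 2.16, 7.88 and 2.73 FPKM in cKO libraries. In both neighbours the Bcl11bm/m values exceeded every wild-type value, with a difference of 1.47 ± 0.30 (adjusted p = 0.0125) for Rsad2 and of 1.67 ± 0.26 (adjusted p = 0.00384) for Cmpk2. The call of Rsad2 was lost when no filter on low values was applied (adjusted p = 0.0537). Oasl1 was at 0.449, 4.29, 2.35, 1.14 and 0.513 FPKM in wild-type, 11.2, 6.05 and 6.39 FPKM in Bcl11bm/m and 2.02, 0.852, 3.85 and 0.575 FPKM in cKO libraries. It showed the largest difference of the set (1.83 ± 0.44, adjusted p = 0.024), with wild-type replicate 2 closest to the Bcl11bm/m libraries. This rank did not hold in all alternatives, and with library quality weights Xaf1 differed more (1.63, against 1.22 for Oasl1). Samd9l, a restriction factor that limits translation, was at 9.19, 12.4, 10.8, 7.23 and 6.67 FPKM in wild-type, 20.5, 15.9 and 14.0 FPKM in Bcl11bm/m and 14.2, 7.36, 11.4 and 7.15 FPKM in cKO libraries. Its difference was 0.81 ± 0.22 (adjusted p = 0.0349), with no overlap. Leaving out Bcl11bm/m replicate 1 ended the calls of Ifit3 (1.04, adjusted p = 0.0769), Oasl1 (1.58, adjusted p = 0.0924) and Samd9l (0.67, adjusted p = 0.13), and so did leaving out Bcl11bm/m replicate 2, wild-type replicate 5 or wild-type replicate 4. Oasl1 and Samd9l also lost their call without Bcl11bm/m replicate 3, and Ifit3 without wild-type replicate 3.

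The other 9 effectors did not pass or were not tested. Bst2, which encodes the virus-tethering membrane protein tetherin, was at 16.9, 60.9, 47.7, 33.8 and 18.7 FPKM in wild-type, 84.5, 34.5 and 35.7 FPKM in Bcl11bm/m and 53.7, 33.8, 39.8 and 62.4 FPKM in cKO libraries. The groups overlapped (0.56 ± 0.48, adjusted p = 0.49). Isg15, a ubiquitin-like modifier, ranged from 2.6 to 15.9 FPKM in wild-type and from 7.69 to 27.9 FPKM in Bcl11bm/m libraries (0.73 ± 0.54, adjusted p = 0.419). Ifit1 ranged from 0.338 to 3.37 FPKM in wild-type and from 2.76 to 6.30 FPKM in Bcl11bm/m libraries (1.17 ± 0.39, adjusted p = 0.0802). Oas3 was at 0.851 to 1.78 FPKM in wild-type and 1.48 to 3.07 FPKM in Bcl11bm/m libraries (0.40 ± 0.19, adjusted p = 0.209). The exonuclease gene Isg20 was at 5.42 to 12.4 FPKM in wild-type and 4.12 to 15.9 FPKM in Bcl11bm/m libraries (-0.10 ± 0.40, adjusted p = 0.902), and so these groups overlapped too. Oasl2 was at 0.0854 to 0.771 FPKM in wild-type, 1.13 to 4.86 FPKM in Bcl11bm/m and 0.150 to 0.853 FPKM in cKO libraries, below the filter but without overlap. Oas1a reached 4.45 FPKM in Bcl11bm/m replicate 1 against 0.288 and 0.280 FPKM in the other two. Oas2 stayed at or below 0.645 FPKM in all libraries. Ifitm3, which blocks viral entry, was listed at 0 in Bcl11bm/m replicates 2 and 3 and at 2.47 FPKM in replicate 1, with 0.323 to 1.65 FPKM in wild-type. The Oas genes are close relatives, and how their reads were shared is uncertain.

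Of the 5 ubiquitin-like and ADP-ribosyl modifiers, Parp14 and Herc6 were higher. Parp14, an ADP-ribosyltransferase, was at 5.83, 9.72, 7.89, 5.71 and 7.14 FPKM in wild-type, 18.5, 17.2 and 15.3 FPKM in Bcl11bm/m and 11.8, 6.99, 14.1 and 10.3 FPKM in cKO libraries. Values of Bcl11bm/m libraries were close together and above wild-type (1.14 ± 0.18, adjusted p = 0.00366). Herc6, the main ligase that attaches Isg15 in the mouse, was at 4.87, 5.22, 3.80, 4.42 and 4.95 FPKM in wild-type, 6.91, 8.87 and 8.09 FPKM in Bcl11bm/m and 5.78, 3.22, 3.80 and 3.81 FPKM in cKO libraries. Here Bcl11bm/m replicate 1 was the lowest of its group, unlike in most members, and the difference was 0.66 ± 0.14 (adjusted p = 0.0132). Its call was lost without Bcl11bm/m replicate 2 or 3, with an adjusted p of up to 0.0705. Dtx3l, a ubiquitin ligase that works with Parp9, was at 17.9, 29.6, 27.2, 19.99 and 25.2 FPKM in wild-type, 44.3, 33.1 and 33.1 FPKM in Bcl11bm/m and 28.9, 26.2, 35.4 and 26.7 FPKM in cKO libraries. The difference of 0.61 ± 0.19 (adjusted p = 0.0605) did not pass, although Bcl11bm/m and wild-type libraries did not overlap. Parp9 was at 6.71 to 16.5 FPKM in wild-type and 15.3 to 22.1 FPKM in Bcl11bm/m libraries (0.58 ± 0.27, adjusted p = 0.193). Dtx3l and Parp9 overlap at their ends on opposite strands, and their reads cannot be told apart there without strand information. Trim25, which activates RIG-I, was at 18.2, 32.1, 28.4, 23.9 and 22.2 FPKM in wild-type, 33.0, 23.4 and 23.5 FPKM in Bcl11bm/m and 23.9, 23.2, 23.9 and 20.8 FPKM in cKO libraries. Apart from wild-type replicate 1, which was the lowest, the libraries of both groups lay in the same range (0.10 ± 0.20, adjusted p = 0.795).

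Interferon-inducible GTPases, which take part in the defence against intracellular pathogens, were higher in 3 of 4 cases. Gbp3 was at 0.914, 1.82, 0.771, 1.001 and 1.11 FPKM in wild-type, 4.57, 3.28 and 3.004 FPKM in Bcl11bm/m and 2.35, 1.60, 3.50 and 1.33 FPKM in cKO libraries. Gbp2 was at 7.56, 13.5, 9.79, 16.7 and 11.5 FPKM in wild-type, 31.9, 18.4 and 20.5 FPKM in Bcl11bm/m and 13.8, 9.37, 20.4 and 12.7 FPKM in cKO libraries. Both lay above wild-type without overlap, with a difference of 1.12 ± 0.18 (adjusted p = 0.00407) for Gbp3 and 0.95 ± 0.26 (adjusted p = 0.0421) for Gbp2. Irgm1 was at 4.87, 16.1, 11.9, 11.96 and 9.04 FPKM in wild-type, 45.9, 23.0 and 23.2 FPKM in Bcl11bm/m and 15.0, 11.4, 24.7 and 12.6 FPKM in cKO libraries. Bcl11bm/m replicate 1 was at about 2 times the other Bcl11bm/m libraries, and the difference was 1.44 ± 0.37 (adjusted p = 0.0289). Igtp, which encodes Irgm3, was at 34.6, 62.4, 67.5, 61.5 and 48.5 FPKM in wild-type, 89.5, 45.7 and 37.8 FPKM in Bcl11bm/m and 53.8, 36.8, 62.0 and 38.3 FPKM in cKO libraries. It did not follow, with Bcl11bm/m replicates 2 and 3 below most wild-type libraries (0.01 ± 0.31, adjusted p = 0.995). Without Bcl11bm/m replicate 1 the calls of Gbp2 (0.72, adjusted p = 0.149) and Irgm1 (1.12, adjusted p = 0.107) were lost. They were also lost without Bcl11bm/m replicate 2 or 3 or wild-type replicate 5, and that of Gbp2 without wild-type replicate 2 or 3. Guanylate-binding protein genes resemble each other, and reads may be split among them.

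Of the 7 remaining members, Xaf1 alone was higher. Xaf1, an interferon-induced gene linked to cell death, was at 8.09, 4.45, 5.28, 8.93 and 7.90 FPKM in wild-type, 28.2, 19.4 and 18.0 FPKM in Bcl11bm/m and 9.47, 2.69, 19.8 and 11.4 FPKM in cKO libraries. The Bcl11bm/m libraries were all above 17 FPKM and no wild-type library reached 9 FPKM (1.54 ± 0.24, adjusted p = 0.00394). Sp100, a component of nuclear bodies and the most highly expressed member, was at 101, 146, 155, 118 and 123 FPKM in wild-type, 223, 179 and 161 FPKM in Bcl11bm/m and 95.4, 107, 138 and 97.6 FPKM in cKO libraries. Its Bcl11bm/m values lay just above the wild-type range, and the difference of 0.55 ± 0.17 (adjusted p = 0.0652) did not pass. Lgals3bp, a secreted galectin ligand, was at 12.4, 29.3, 23.5, 29.5 and 20 FPKM in wild-type, 57.5, 35.8 and 31.5 FPKM in Bcl11bm/m and 24.2, 13.5, 25.1 and 16.8 FPKM in cKO libraries. Bcl11bm/m and wild-type libraries did not overlap, and the difference was 0.84 ± 0.31 (adjusted p = 0.1). Rtp4, a receptor transporter, was at 3.46 to 15.1 FPKM in wild-type and 15.0 to 35.5 FPKM in Bcl11bm/m libraries (1.31 ± 0.46, adjusted p = 0.0933). Ifi35 was at 4.60 to 16.9 FPKM in wild-type and 11.2 to 18.6 FPKM in Bcl11bm/m libraries (0.59 ± 0.36, adjusted p = 0.317). Ifi27l2a had the lowest difference of the set (-1.0 ± 0.66, adjusted p = 0.355), with 1.11 to 13.7 FPKM in wild-type and 0.911 to 5.64 FPKM in Bcl11bm/m libraries, and its exons overlap those of Ifi27l2b on the same strand. Ifi44 stayed at or below 1.22 FPKM in all libraries and was listed at 0 in 3 of them.

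**Figure D4:**
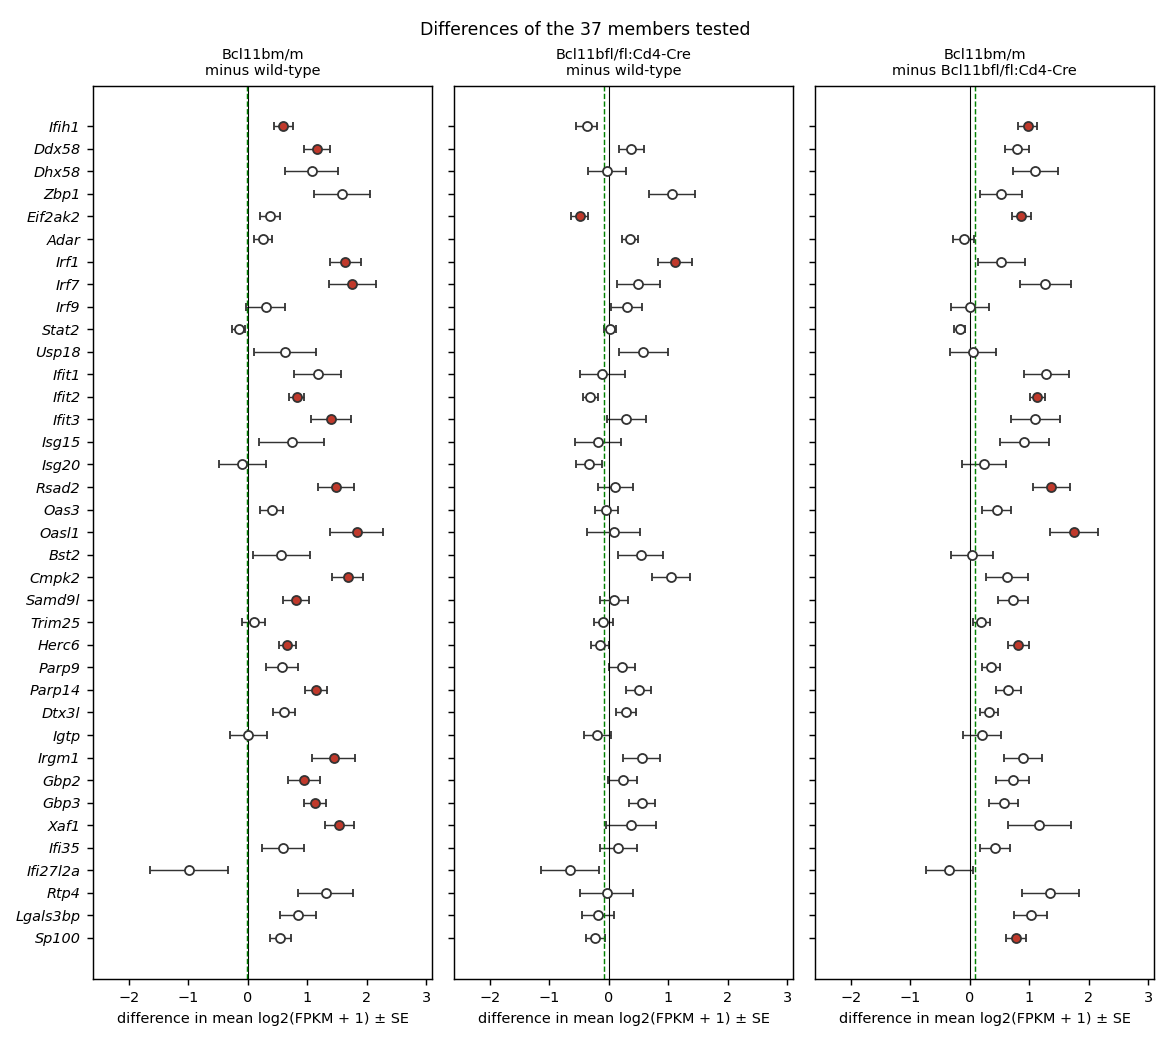
Difference in mean log2(FPKM + 1) with SE for the 37 members tested (rows) in the 3 comparisons (panels). Filled points passed the limma test (adjusted p below 0.05), and the dashed line is the median of all 10780 features. There are 16 filled points in the Bcl11bm/m panel, 2 in the cKO panel and 7 in the direct comparison.

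In cKO thymocytes, few members differed from wild-type. Irf1 was higher by 1.11 ± 0.29 (adjusted p = 0.033) and Eif2ak2 lower (-0.49 ± 0.14, adjusted p = 0.0447). The other 35 tested members did not pass in limma, 5 were not tested, and at an unadjusted p below 0.05, 6 were higher and 2 lower. Over all features 4.65% were higher and 9.86% lower, so the members' share, 2.7% each way, was not above the background in either direction. Groups did not overlap for 3 of the 37 members, with 1 higher in cKO libraries and 2 lower, against 5.44% and 10.6% of all features. The median difference of the 42 members was 0.09, against -0.09 over all features, with members on both sides of 0. Over the 37 members tested the median was 0.105, and it was -0.02 without cKO replicate 3 and 0.26 without replicate 4. This comparison shares its wild-type libraries with the one above. Side by side, Irf1 differed by 1.64 in Bcl11bm/m and 1.11 in cKO thymocytes, Cmpk2 by 1.67 and 1.05, Zbp1 by 1.58 and 1.06, Irf7 by 1.76 and 0.49, Oasl1 by 1.83 and 0.08, Rsad2 by 1.47 and 0.10 and Ifit2 by 0.82 and -0.31. The difference of 1.05 ± 0.32 (adjusted p = 0.0539) for Cmpk2 did not pass, nor did that of Zbp1 (1.06 ± 0.38, adjusted p = 0.0937). With median-ratio scaling of the libraries 4 members were higher and 0 lower, and with quantile normalization 3 higher and 1 lower. With library quality weights 2 were higher and 4 lower, and 2 were higher and 3 lower without wild-type replicate 1. The shares of all features in these settings are not given here, so these counts are a description. The call of Irf1 was lost without wild-type replicate 2, 3 or 5 or cKO replicate 1, 3 or 4 (adjusted p up to 0.0817). Eif2ak2 lost its call without wild-type replicate 2, 3 or 5 or any 1 of the 4 cKO libraries (up to 0.109). cKO replicate 3, with the highest level in the group, also had the highest mature thymocyte and myeloid marker sums of its group (689 and 51.3 FPKM). Most of the myeloid sum was Fcer1g (42.2 FPKM). Lyz2 (0.433 FPKM) and C1qa (0.518 FPKM) were below every wild-type library there, which started at 2.19 and 0.981 FPKM.

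The direct comparison of the mutants tests whether the RNA levels of the members differ between them. These groups also differ in allele, timing of the loss and estimated depth, and the age of cKO mice is not given. Such differences cannot be told apart here. Of the 42 members 7 were higher in Bcl11bm/m than in cKO thymocytes, 0 were lower, 30 did not pass in limma and 5 were not tested. Among all features 7.63% were higher and 2.6% lower, 10.2% in all. At an unadjusted p below 0.05, 18 members were higher and 0 lower. The median difference was 0.64, against 0.09 over all features. The sensors Ifih1 (0.97 ± 0.16, adjusted p = 0.0144) and Eif2ak2 (0.86 ± 0.15, adjusted p = 0.0186) were higher in Bcl11bm/m thymocytes. Of the effectors, Ifit2 (1.13 ± 0.13, adjusted p = 0.00472), Oasl1 (1.75 ± 0.41, adjusted p = 0.0401) and Rsad2 (1.37 ± 0.31, adjusted p = 0.0381) were higher. Herc6 (0.82 ± 0.18, adjusted p = 0.0344) and Sp100 (0.78 ± 0.17, adjusted p = 0.0321) completed the 7. Ifih1 averaged below 1 FPKM in cKO libraries and passed the filter through the other groups, so its call is no support here, and 6 are left without it. Groups did not overlap for 12 of the 37 members tested, which were higher in Bcl11bm/m libraries (32.4%; 11 without Ifih1), against 18.9% of all features, and 1 member, Stat2, was lower without overlap, against 7.76%. For Irf1 the mutants overlapped, and the difference was 0.53 ± 0.40 (adjusted p = 0.421). Cmpk2 (0.63 ± 0.35, adjusted p = 0.287) and Bst2 (0.03 ± 0.35, adjusted p = 0.967) did not pass either. Ifit2 passed with each library left out in turn. The calls of Herc6, Oasl1, Rsad2 and Sp100 were each lost without any 1 of the 3 Bcl11bm/m libraries, with adjusted p of up to 0.111. Each was also lost without cKO replicate 2 or 4, that of Herc6 without replicate 3 and those of the other three without replicate 1. That of Eif2ak2 was lost without Bcl11bm/m replicate 2 or cKO replicate 1. Of the 11 myeloid and dendritic markers tested, 8 were also higher in Bcl11bm/m than in cKO thymocytes and 0 lower. So were 2 of 3 erythroid and 2 of 4 NK cell markers, again with 0 lower, and the erythroid markers summed to 11.1 to 30.3 FPKM in Bcl11bm/m, 1.04 to 5.13 FPKM in cKO and 2.46 to 34.7 FPKM in wild-type libraries. Of the markers tested, Mpeg1, Flt3, C1qa, C1qb and C1qc were below 1 FPKM in every cKO library, and the erythroid Hbb-b2 in all but replicate 4. They passed the filter through other groups, so these marker counts are no support. The part of myeloid, erythroid or NK cells in these differences was not tested.

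Upstream of the members, the interferon genes themselves were listed at or near 0. Of 18 interferon genes in the table, 15 were listed at 0 in all 12 libraries, Ifnb1 among them, and the highest value of the other three (Ifnk, Ifnz and Ifng) was 0.364 FPKM. The receptor subunits of type I interferon were present in all libraries. Ifnar1 was at 22.5, 25.4, 25.6, 25.2 and 29.6 FPKM in wild-type, 26.4, 26.1 and 26.4 FPKM in Bcl11bm/m and 23.2, 25.7, 24.2 and 27.0 FPKM in cKO libraries. Ifnar2 was at 22.6, 29.3, 25.9, 22.3 and 29.1 FPKM in wild-type, 32.5, 27.2 and 31.1 FPKM in Bcl11bm/m and 21.0, 21.8, 26.6 and 23.5 FPKM in cKO libraries. In neither did a mutant differ from wild-type by the test, with differences of 0.04 ± 0.10 (adjusted p = 0.847) and 0.22 ± 0.13 (adjusted p = 0.291) for Bcl11bm/m thymocytes. Between the mutants, Ifnar2 was above all cKO libraries in each Bcl11bm/m library, and the difference did not pass (0.37 ± 0.11, adjusted p = 0.0809).

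Other genes of the pathway were taken as lists of receptors and kinases, sensors and adaptors, negative regulators and further interferon-stimulated genes, none of them members. Together 45 of 117 tested were higher in Bcl11bm/m thymocytes than in wild-type (38.5%, against 9.92% of all features), 0 were lower, and at an unadjusted p below 0.05, 58 were higher and 6 lower. Of the 45, Samhd1, Iigp1, Trim30d, Slfn1 and Ly6a averaged below 1 FPKM in wild-type and passed the filter through the mutants, so these calls are no support, and 40 are left without them. Of 15 receptors and proximal signalling genes, 5 were higher. Ifngr1, which binds interferon gamma, was at 189, 299, 304, 323 and 293 FPKM in wild-type, 852, 868 and 810 FPKM in Bcl11bm/m and 355, 273, 377 and 363 FPKM in cKO libraries. The lowest Bcl11bm/m library was at 810 FPKM, while the other groups overlapped and reached no more than 377 FPKM (1.60 ± 0.20, adjusted p = 0.00107). Jak1 (0.69 ± 0.11, adjusted p = 0.00413), Irf2 (0.46 ± 0.11, adjusted p = 0.0199), Tyk2 (0.60 ± 0.15, adjusted p = 0.0289) and Il10rb (1.01 ± 0.28, adjusted p = 0.0433) were the others, and Il10rb shares exons with Ifnar2. Tyk2 was also the single gene of this list called in cKO thymocytes (0.56 ± 0.15, adjusted p = 0.0347), where it passed in 3 of 9 cases with a library left out. With a library left out, Ifngr1 and Jak1 passed in all 8 cases, Irf2 in 6, Tyk2 in 3 and Il10rb in 1. The partner subunit Ifngr2 differed by -0.42 ± 0.14 (adjusted p = 0.0698).

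Among 10 sensors and adaptors tested, 5 were higher in Bcl11bm/m thymocytes and 4 in cKO thymocytes, where 4.65% of all features were higher. Tmem173, which encodes STING, the adaptor for cytosolic DNA, was at 0.684, 6.85, 5.49, 5.11 and 5.25 FPKM in wild-type, 99.1, 119 and 112 FPKM in Bcl11bm/m and 36.4, 13.2, 127 and 53.0 FPKM in cKO libraries. It was higher in both mutants, by 4.45 ± 0.46 (adjusted p = 0.000525) in Bcl11bm/m and by 3.11 ± 0.62 (adjusted p = 0.011) in cKO thymocytes. Mavs, the adaptor of the RNA helicases, was at 5.97, 8.24, 10.3, 9.25 and 7.45 FPKM in wild-type, 24.4, 19.1 and 19.4 FPKM in Bcl11bm/m and 14.3, 9.43, 21.6 and 16.6 FPKM in cKO libraries. It differed by 1.26 ± 0.18 (adjusted p = 0.00221) and, in cKO thymocytes, by 0.80 ± 0.22 (adjusted p = 0.0385). Ikbke, a kinase that activates Irf3 and Irf7, was at 20.9, 21.4, 21.5, 18.9 and 16.8 FPKM in wild-type, 38.1, 33.9 and 30.4 FPKM in Bcl11bm/m and 41.3, 34.3, 44.4 and 34.1 FPKM in cKO libraries. The libraries of both mutants lay above all wild-type libraries, with differences of 0.75 ± 0.12 (adjusted p = 0.00462) and 0.91 ± 0.12 (adjusted p = 0.00385). Irak4, a kinase of the Toll-like receptor pathway, followed with 0.87 ± 0.12 (adjusted p = 0.00236) and 0.86 ± 0.18 (adjusted p = 0.0146). In cKO thymocytes the call of Tmem173 was lost when no filter on low values was applied (adjusted p = 0.0564). That of Irak4 was lost in the same way and with the replicate number as a block (adjusted p up to 0.0655). Aim2, a DNA sensor of inflammasomes, was higher in Bcl11bm/m thymocytes (1.29 ± 0.25, adjusted p = 0.00917), and in the direct comparison of the mutants as well (1.59 ± 0.39, adjusted p = 0.0449), though there it passed in 1 of the 7 cases with a library left out. Mavs lost its call in cKO thymocytes without wild-type replicate 2, 4 or 5 or cKO replicate 1, 3 or 4 (adjusted p up to 0.106).

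Negative regulators were higher in 4 of 19 cases in Bcl11bm/m thymocytes (21.1%, against 9.92% of all features). These were the Stat inhibitor Pias3 (1.21 ± 0.16, adjusted p = 0.00164), the nucleotide hydrolase Samhd1, which passed the filter through the mutants, and the phosphatases Ptpn2 (0.52 ± 0.15, adjusted p = 0.0458) and Ptpn6 (0.46 ± 0.13, adjusted p = 0.0477). The call of Samhd1 is thus no support, and 3 are left without it. With a library left out, Pias3 passed in all 8 cases, Samhd1 and Ptpn2 in 1 each and Ptpn6 in none. Socs1, the feedback inhibitor of the receptor kinases, was at 74.4, 115, 128, 163 and 137 FPKM in wild-type, 123, 107 and 109 FPKM in Bcl11bm/m and 105, 93.9, 131 and 111 FPKM in cKO libraries. Its groups overlapped (-0.08 ± 0.23, adjusted p = 0.853). In cKO thymocytes Rnaseh2b, a subunit of the nuclease that removes ribonucleotides from DNA, was the single regulator called, and it was lower (-1.08 ± 0.24, adjusted p = 0.0173). This call was lost without cKO replicate 1 or 4.

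**Figure D5:**
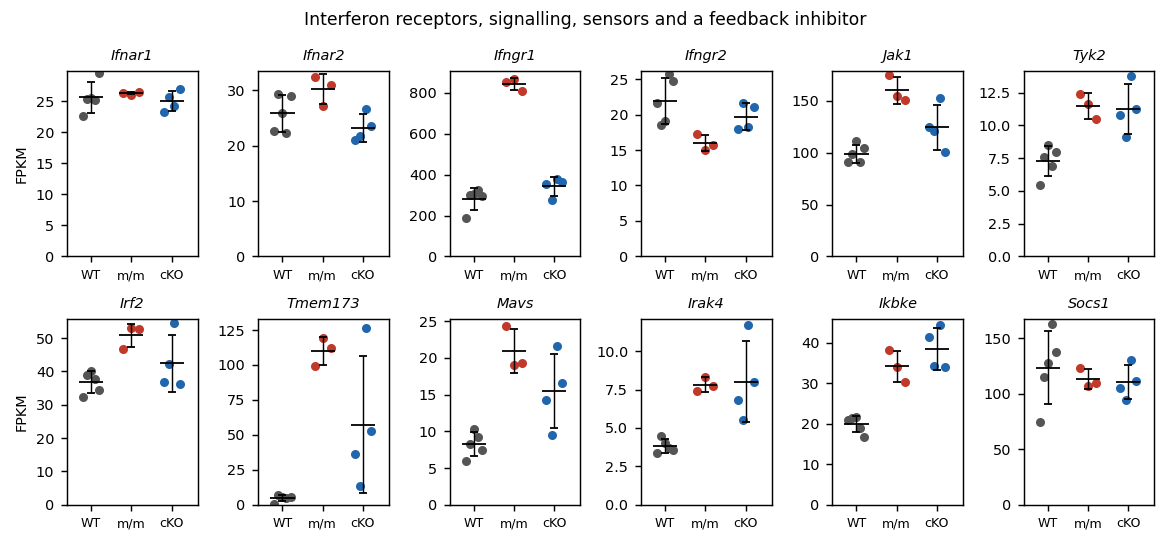
FPKM of 12 genes of the interferon pathway, with 1 point per library, the mean (line) and SD (bars), for wild-type (WT, n = 5), Bcl11bm/m (m/m, n = 3) and cKO (n = 4). Ifnar1 is level at 22.5 to 29.6 FPKM, Ifngr1 reaches 810 FPKM or more in Bcl11bm/m libraries and at most 377 FPKM in the others, and Tmem173 is below 7 FPKM in every wild-type library.

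Further interferon-stimulated genes, apart from the 42 members, were higher in 31 of 73 cases in Bcl11bm/m thymocytes (42.5%), with 0 lower, against 9.92% and 7.39% of all features. Without Iigp1, Trim30d, Slfn1 and Ly6a, 27 are left. The lowest adjusted p were those of Ly6c1 (4.75 ± 0.24, adjusted p = 1.09e-05) and Ly6c2 (2.92 ± 0.22, adjusted p = 9.5e-05), surface proteins that mature T cells also carry, Trim30d, the growth regulator Slfn5 (1.38 ± 0.19, adjusted p = 0.00216) and Pml, the organizer of nuclear bodies (1.11 ± 0.16, adjusted p = 0.00287). Ly6c1 and Ly6c2 are near-identical copies, so the division of reads between them is uncertain. Trim30d, at 0.301 to 1.39 FPKM in wild-type, 3.46 to 5.25 FPKM in Bcl11bm/m and 0.406 to 0.848 FPKM in cKO libraries, passed the filter only through the group in which it was high, so that its call between the mutants is no support either. In cKO thymocytes 7 of the 73 were higher and 1 lower, against 4.65% and 9.86% of all features. Among the 7 were Tap2, the peptide transporter of antigen presentation (1.03 ± 0.19, adjusted p = 0.00788), Trim14 (0.90 ± 0.17, adjusted p = 0.00973), Ly6c1 (3.53 ± 0.68, adjusted p = 0.01), Tor3a (0.83 ± 0.22, adjusted p = 0.0358) and Ly6c2 (2.03 ± 0.57, adjusted p = 0.0404). The call of Ly6c1 was lost without a filter on low values or with the replicate number as a block (adjusted p up to 0.0575). Tor3a and Ly6c2 lost their call in 7 and 8 of the 9 cases with a library left out. Directly compared, 18 of the 117 pathway genes were higher in Bcl11bm/m than in cKO thymocytes (against 7.63% of all features) and 0 lower, with 45 higher and 8 lower at an unadjusted p below 0.05. Of these, Ifngr1 (1.31 ± 0.15, adjusted p = 0.00482), Gbp9 (1.20 ± 0.16, adjusted p = 0.00781) and Gbp7 (1.14 ± 0.18, adjusted p = 0.013) passed with each library left out in turn. Ptpn2 (0.56 ± 0.09, adjusted p = 0.0121), Parp12 (1.06 ± 0.18, adjusted p = 0.0154) and Usp25 (0.40 ± 0.07, adjusted p = 0.0192) did not pass without Bcl11bm/m replicate 2 or 3. Il10rb (0.46 ± 0.11, adjusted p = 0.0382) passed in 1 of the 7 cases and Jak2 (0.45 ± 0.10, adjusted p = 0.0342) in none. The sum of the mature thymocyte markers was also higher in every Bcl11bm/m library than in every wild-type library, and its part in these differences was not tested.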

How the data were processed

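RNA-seq of sorted pre-selection DP thymocytes from 5 wild-type, 3 Bcl11bm/m and 4 Bcl11bfl/fl:Cd4-Cre (cKO) samples was analysed from a table of FPKM values that the authors deposited. Per the submitters' processing notes, reads were aligned to mm9 with TopHat2 (version 2.8.0 in the notes) and FPKM were made with Cufflinks (version 2.1.1). Scaling between libraries was not given in the sources used here. Sources differ on the library kit, so whether strand was used is uncertain. Depth was estimated from FPKM steps in 5337 genes with a single GENCODE transcript, in which 65.8% to 71.4% of low values lay within 0.1 of a whole number of fragments, against 20% for an even spread. These steps do not give whole reads for nearly all genes, so no count test was run. FPKM were analysed as log2(FPKM + 1) in limma (version 3.58.1, R 4.3.3; eBayes with a trend, two-sided) with the groups of each comparison alone. Features whose FPKM averaged 1 or more across all 12 libraries were kept, which left 10780 of 23234 features. Adjusted p are Benjamini-Hochberg values over these, with a threshold of 0.05. Groups follow the sample titles. Named were all members, with library values for those called in any comparison or averaging 20 FPKM or more, and up to 5 called genes with the lowest adjusted p in each list of pathway genes. The members and lists were chosen with earlier results of these data known. Summaries and figures were made with Python 3.11.15, pandas 2.3.3 and matplotlib 3.10.9. Alternatives were the pseudocount, the filter, scaling, the groups in the fit, a replicate block, library weights, robust variances and leaving out each library.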

Additional observations from a re-analysis of the deposited data

Results flagged for a closer look

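Of 142 groups of 4 or 5 libraries examined among the genes named, 9 held a library far from the others of its group by Dixon's criterion, and chance gives about 1 in 20 groups, or 7.1. Wild-type replicate 2 was high for Cmpk2 (2.87 FPKM, others 0.817 to 1.26), Ifit3 (1.82 FPKM, others 0.242 to 0.544) and Oasl2 (0.771 FPKM, others 0.0854 to 0.280). Wild-type replicate 1 was low for Zbp1 (6.44 FPKM, others 22.2 to 25.9), Tmem173 (0.684 FPKM, others 5.11 to 6.85) and Ifngr1 (189 FPKM, others 293 to 323). cKO replicate 3 was high for Ifit3 (2.78 FPKM, others 0.473 to 0.808) and Oasl2 (0.853 FPKM, others 0.150 to 0.252). cKO replicate 1 was low for Ifit2 (7.15 FPKM, others 9.53 to 9.70). The 3 Bcl11bm/m libraries are too few for this criterion.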

How the results depend on the processing

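No call of a member or named pathway gene changed its direction under any alternative. In the comparison of Bcl11bm/m with wild-type, 16 members were called, and the count was 8 without a filter, 10 with a mean of at least 5 FPKM, 20 with median-ratio scaling and 8 to 17 with a library left out. The share of all features called was 17.3%, and in these settings 6.46%, 14.5%, 22.1% and 9.47% to 21.8%. Against 2 members called in cKO thymocytes, the count was 0 without a filter (9 at an unadjusted p below 0.05 in limma), 1 with a mean of at least 5 FPKM, 4 with median-ratio scaling, 4 with quantile normalization, 6 with library quality weights and 0 to 5 with a library left out. In the direct comparison of the mutants, with 7 called, it was 3 without a filter, 4 with a mean of at least 5 FPKM, 4 with quantile normalization and 2 to 11 with a library left out. In the main setting 14.5% of all features were called in cKO against wild-type and 10.2% between the mutants. The shares under each alternative are not given for these comparisons, so their counts are not read as particular to the members. The cause of the shifts in count was not tested. Without a filter the calls of Gbp2, Ifih1, Ifit3, Irf7, Irgm1, Oasl1, Rsad2 and Samd9l were lost in Bcl11bm/m against wild-type, those of Irf1 and Eif2ak2 in cKO against wild-type and those of Herc6, Oasl1, Rsad2 and Sp100 between the mutants. So were, of the pathway genes named, those of Il10rb, Samhd1, Ptpn2 and Ptpn6 in the first comparison, Tyk2, Tmem173, Irak4, Mavs, Rnaseh2b, Ly6c1, Tor3a and Ly6c2 in the second and Jak2 and Aim2 in the third. Without both libraries numbered 1, an alternative chosen after seeing the data, Gbp2, Ifih1, Ifit3, Oasl1, Rsad2 (adjusted p = 0.057 in limma) and Samd9l lost their call in Bcl11bm/m against wild-type. Samples with the same replicate number had correlations of -0.211 to 0.152 in their deviations and share only a number. With the replicate number as a block, which also drops the unshared libraries, 1 member (Xaf1) was called in Bcl11bm/m against wild-type (12 at an unadjusted p below 0.05), 0 in cKO against wild-type (5 unadjusted) and 0 between the mutants (14 unadjusted). In the first of these, 2.72% of all features were called, so 1 of the 37 members tested was near that share. Of the pathway genes named, Tmem173, Ly6c1 and Ly6c2 kept their call under the block in the first comparison, Ikbke, Tmem173 and Tap2 in the second and none in the third. The median difference of the members tested (37, or 42 without a filter and 28 with the stricter one) was 0.81, 0.105 and 0.72 in the 3 comparisons and ran from 0.50 to 0.93, from -0.02 to 0.26 and from 0.49 to 0.82. Depth limits the low members most in the Bcl11bm/m libraries, where 1 FPKM of a transcript of 2000 bases rests on 4.9 to 7.6 fragments. Where a left-out library leaves 2 Bcl11bm/m samples, their spread is pooled with the other group.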
